A study of Mus musculus with 4 samples.

Results

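The Rb1 mutant group comprised 2 of the 4 prostates in the series, each set against a pool of wild-type prostate RNA on a 2-colour Agilent mouse array. The 2 mice were Rb1R654W/F:Trp53F/F:PB-cre4, aged 60 days, on a mixed C57BL/6:129/SVJae:FVB background. Of their Rb1 alleles, 1 codes for a protein with the R654W change, which the series title describes as deficient in E2F binding, and the other is the conditional allele. Both Trp53 alleles were conditional. The other 2 mice, called null here, were Rb1F/F:Trp53F/F:PB-Cre4 at the same age and on the same background. Each array held 1 mouse in the red Cy5 channel and RNA pooled from 3 wild-type mice in the green Cy3 channel, with no dye swap. Values are log2 ratios of mouse over pool, so 0 is the level of the pool and 1 is 2-fold higher. PB-Cre4 is a Cre transgene under the probasin promoter and acts in prostate epithelium, which is part of the tissue taken. The pool carried neither Cre nor the conditional alleles. Rb1, Trp53, Cre, the dyes and the strain mix of single mice therefore cannot be told apart in a ratio to the pool. The comparison asks what a prostate that retains an E2F-binding-deficient retinoblastoma protein expresses differently from wild-type prostate.

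The retinoblastoma protein is a pocket protein that binds E2F transcription factors and holds back the genes they drive, which serve DNA replication and entry into S phase. The R654W change lies in the pocket, and its human counterpart is known from families in which retinoblastoma occurs with low penetrance. In prostate, the secretory luminal cells and the basal cells rest on a stroma of smooth muscle, fibroblasts, vessels and resident immune cells. RNA of all of these is mixed in whole tissue. In such bulk samples, more cells of a type and more RNA per cell cannot be told apart.

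All 4 arrays lay on 1 slide and were scanned together, and each genotype held adjacent positions, so genotype cannot be told apart from position. Between 25549 and 26168 probes were well above background in the channel of the mutant mice, against 22183 and 25047 in the null mice. The pool channel had 22325 to 23072 such probes on the 4 arrays. No spot was saturated. With 2 mice in the group, precision is limited throughout by the number of arrays. Null mouse 1 stood apart from the other mice, with a median background-subtracted red signal of 20.5, against 81.9 and 90.1 in the mutant mice. It enters the estimate of spread between mice behind the p-values below. The markers of prostate tissue were present: 5 of 6 secretory, 2 of 2 luminal, 3 of 3 basal and 3 of 3 smooth muscle markers were measured above the filter on dim probes. Markers of neighbouring tissue were also measured, namely 4 of 4 of seminal vesicle, 2 of 2 of skeletal muscle and 2 of 3 of urothelium. Rb1 had log2 ratios of -0.65 and -0.24 in mutant mice 1 and 2, and Trp53 of 0.14 and 0.12. It was not established whether these probes fall within the floxed segments, and they are therefore no check of the labels.

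Of 16826 gene rows tested, 2 fell in the mutant mice at a Benjamini-Hochberg adjusted p under 0.05 in limma, which is 0.0119% of rows. They were Ms4a5, of the membrane-spanning Ms4a family, at -4.26 and -4.43 in mutant mice 1 and 2, and the flagellin sensor Naip5 at -3.03 and -3.24. Their means were -4.35 ± 0.12 (SD, n = 2, limma adjusted p = 0.0354) and -3.13 ± 0.15 (adjusted p = 0.0429). The null mice read -3.68 and -4.24 for Ms4a5 and -2.64 and -2.99 for Naip5 against the same pool. The call did not hold without either mutant mouse, from Agilent's processed signals, with scale normalisation between arrays or with no filter on dim probes, where 0 genes passed. At an unadjusted p under 0.05, 1007 rows (5.98%) were higher and 710 (4.22%) lower. Between mutant and null mice 0 rows (0% of those tested, smallest limma adjusted p = 0.993) passed, and 332 had an unadjusted p under 0.05. What follows describes gene classes by their counts and medians, and no other gene named below passed the adjusted threshold.

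Both mutant mice lay above the pool for 6231 rows, which is 37.0% of those tested, and both below it for 4894, or 29.1%. The medians over all rows were 0.03 and 0.02 in mutant mice 1 and 2. For the other 5701 rows the mice lay on opposite sides of 0 or at it. Mouse 1 had the wider ratios, with an SD across rows of 0.444 against 0.307 in mouse 2. The median SD between the mice was 0.147. Among the 15123 rows well above background in both channels of both mutant arrays, 35.6% lay above the pool in both mice and 30.6% below. Each class below is read against these shares.

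**Figure D1:**
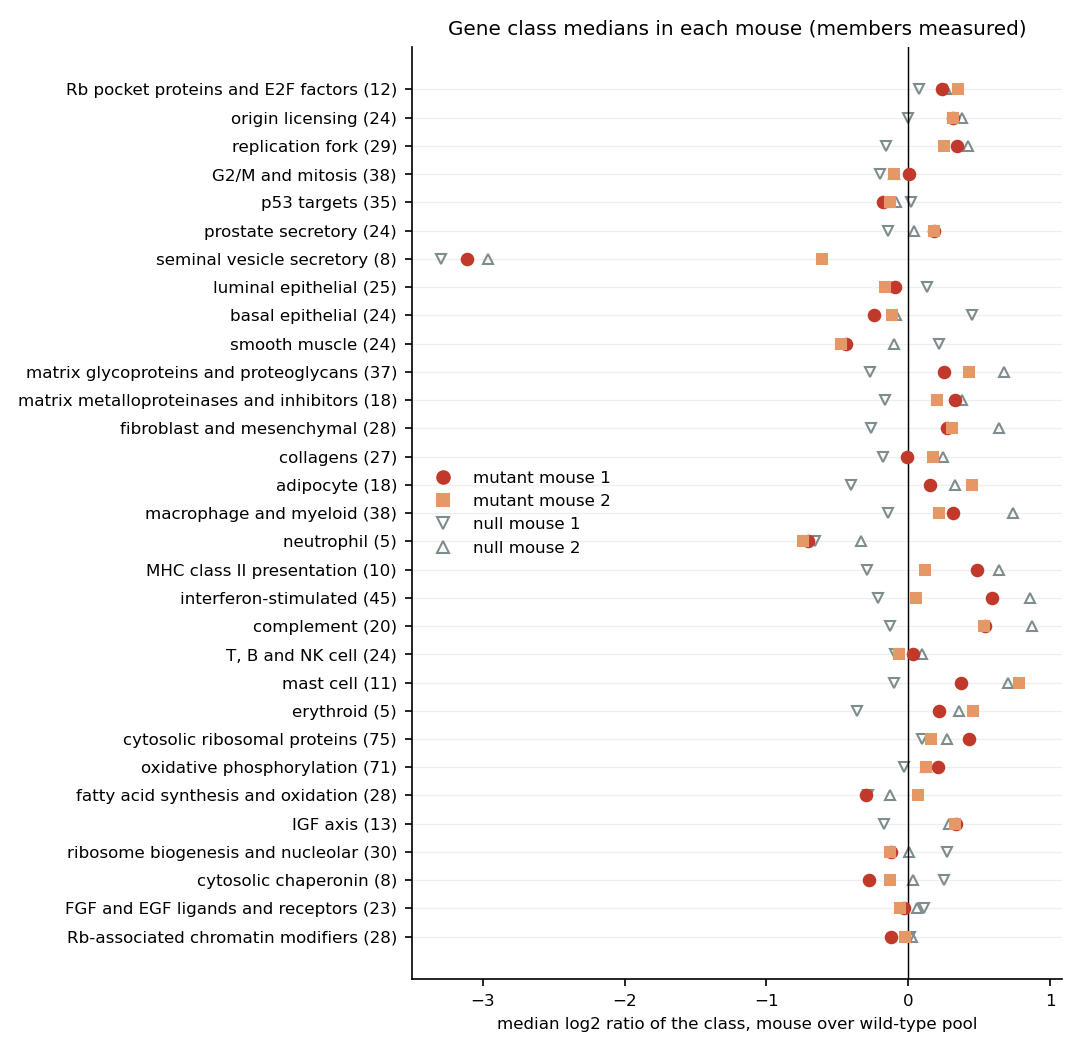
Median log2 ratio to the wild-type pool (horizontal axis) for each gene class (vertical axis, members measured in parentheses), with filled symbols for the 2 mutant mice and open triangles for the 2 null mice. In both mutant mice the replication classes lay above 0 (origin licensing 0.31 and 0.31) and smooth muscle below it (-0.44 and -0.47), while the interferon-stimulated median differed between them (0.59 and 0.05).

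Genes that license replication origins stood above the pool in both mutant mice. Licensing loads the Mcm2 to Mcm7 helicase onto origins with the help of Cdt1 and Cdc6 before S phase, and the GINS complex and Cdc45 then turn it on. Of 25 listed genes 24 were measured, and their medians were 0.31 and 0.31. Both mice lay above the pool for 17 of the 24 and below it for 2, against 37.0% and 29.1% of all rows, and 7 had an unadjusted p under 0.05, all higher. All 24 were well above background in both channels of both mutant arrays. Summed over the class, the mouse channel stood at 1.49 and 1.65 times the pool channel.

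Helicase subunits led the class. Mcm6 was at 1.30 and 1.73 in mutant mice 1 and 2, Mcm3 at 1.43 and 1.37, and Mcm4 at 0.87 and 1.09. Mcm2, Mcm5 and Mcm7 lay lower, at 0.81 and 0.79, 0.55 and 0.59, and 0.50 and 0.40. So all 6 subunits of the helicase lay above the pool in each mutant mouse, by a factor that differed between subunits. A second, dimmer Mcm3 probe read 0.42 and 0.76, on the same side with a smaller ratio. The loading factor Cdt1 was at 1.42 and 1.22, and its inhibitor geminin (Gmnn) at 0.44 and 0.64. Cdc6, the partner of Cdt1 in loading, read 0.02 and 0.15, and the helicase activator Cdc45 read 0.03 and -0.05, both near the level of the pool. Gins2 was at 0.51 and 0.78, whereas Gins3 at -0.38 and -0.28 and the helicase paralogue Mcm8 at -0.29 and -0.26 lay below the pool. The fitted means were 1.51 (SE 0.33) for Mcm6, 1.40 (SE 0.34) for Mcm3 and 1.32 (SE 0.34) for Cdt1, each with a limma adjusted p of 0.477. Null mouse 1 read 0.41, 0.20 and -0.15 for these 3 genes and null mouse 2 read 1.70, 1.63 and 1.25, against the same pool. Null mouse 2 thus lay close to the mutant mice and null mouse 1 nearer the pool, and the class medians of the null mice were -0.00 and 0.38. Members outside the rule for named genes, here and in the paragraphs below, were chosen after their values were seen.

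Promoter letters were read for these genes because E2F binds a short, GC-rich element in many of them. Windows from 250 bases before to 50 after the start, from RefSeq on GRCm38.p6, were found for 11088 of the 16826 gene rows. They were searched on both strands for the letters TTTCCCGC, TTTCGCGC, TTTGCCGC and TTTGGCGC. Matches can overlap where a forward letter run continues into a reverse one. At least 1 match stood in 744 of all 32851 windows (2.26%). Of the 11088 tested genes with windows, 480 (4.33%) had a match in at least 1 window. So did 10 of 19 origin licensing genes (52.6%) and 8 of 25 replication fork genes (32%). Among pocket proteins and E2F factors it was 5 of 9 genes (55.6%), and among G2/M genes 3 of 31 (9.68%). Among licensing genes, the 10 with a match had median ratios of 0.26 and 0.50 in mutant mice 1 and 2, and the 9 without had 0.09 and 0.19. Only these 19 of the 24 measured licensing genes had windows. Both medians of mouse 1 lay below its median of 0.31 over all 24, so the split does not describe the whole class. Among replication fork genes, the 8 with a match had 0.37 and 0.38 and the 17 without 0.25 and 0.15. Among G2/M genes, the 3 with a match had -0.06 and -0.24, below the 28 without at -0.00 and -0.10. Over all tested genes the 480 with a match had medians of 0.04 and 0.02, against 0.01 and 0.01 in the 10608 without. A match describes letters and is not evidence of binding in this tissue. Matches also stood in the windows of Gins3 and Mcm8, which lay below the pool in both mice, and of Cdc6, which lay near it. The windows of the 3 leading licensing genes follow, 5′ to 3′ on the strand of the gene, with matches in capitals. Mcm3 (chr1:20820263-20820562, minus strand) has 2 matches, Mcm6 (chr1:128359656-128359955, minus strand) 3, of which 2 overlap, and Cdt1 (chr8:122567765-122568064, plus strand) 1.
Mcm3 promoter: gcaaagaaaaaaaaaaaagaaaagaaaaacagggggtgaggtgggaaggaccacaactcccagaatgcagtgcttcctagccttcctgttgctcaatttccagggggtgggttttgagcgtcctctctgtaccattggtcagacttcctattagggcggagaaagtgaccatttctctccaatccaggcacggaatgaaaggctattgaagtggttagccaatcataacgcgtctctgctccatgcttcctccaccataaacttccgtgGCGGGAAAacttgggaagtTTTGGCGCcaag
Mcm6 promoter: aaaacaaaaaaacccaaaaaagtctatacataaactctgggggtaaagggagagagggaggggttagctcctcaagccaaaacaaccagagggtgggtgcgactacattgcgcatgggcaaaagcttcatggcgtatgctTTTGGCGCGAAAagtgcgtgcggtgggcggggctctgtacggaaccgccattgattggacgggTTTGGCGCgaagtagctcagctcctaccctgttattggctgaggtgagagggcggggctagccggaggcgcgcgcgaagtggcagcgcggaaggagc
Cdt1 promoter: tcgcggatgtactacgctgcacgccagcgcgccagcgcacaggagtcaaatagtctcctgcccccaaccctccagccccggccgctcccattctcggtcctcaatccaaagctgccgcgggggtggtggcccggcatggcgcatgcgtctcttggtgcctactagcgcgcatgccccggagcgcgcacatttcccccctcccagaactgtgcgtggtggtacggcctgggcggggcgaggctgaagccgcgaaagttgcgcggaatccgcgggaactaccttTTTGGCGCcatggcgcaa

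The enzymes and clamp of the replication fork showed the same direction. Of 30 listed genes 29 were measured, with medians of 0.34 and 0.25, 19 above the pool in both mice, 4 below, and 5 with an unadjusted p under 0.05, all higher. Chaf1b, a subunit of the assembly factor that places histones on new DNA, was at 0.91 and 1.17. The sliding clamp Pcna was at 0.84 and 0.72, and its mean of 0.78 had a SE of 0.14. The catalytic polymerase alpha subunit Pola1 was at 0.52 and 0.71, and its primase partner Prim1 read 0.51 in mouse 1 and over 1 in mouse 2. These 4 genes and Pole2, at 0.34 and 0.85, were the members with an unadjusted p under 0.05. Single-strand binding protein was split, since Rpa3 read 0.25 and 0.44 while the large subunit Rpa1 read -0.37 and -0.18. Rnaseh2a, a subunit of an enzyme that removes RNA from DNA, read -0.19 and -0.71. Class medians in null mice 1 and 2 were -0.15 and 0.42, and Pcna read 0.65 and 0.79 in them.

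**Figure D2:**
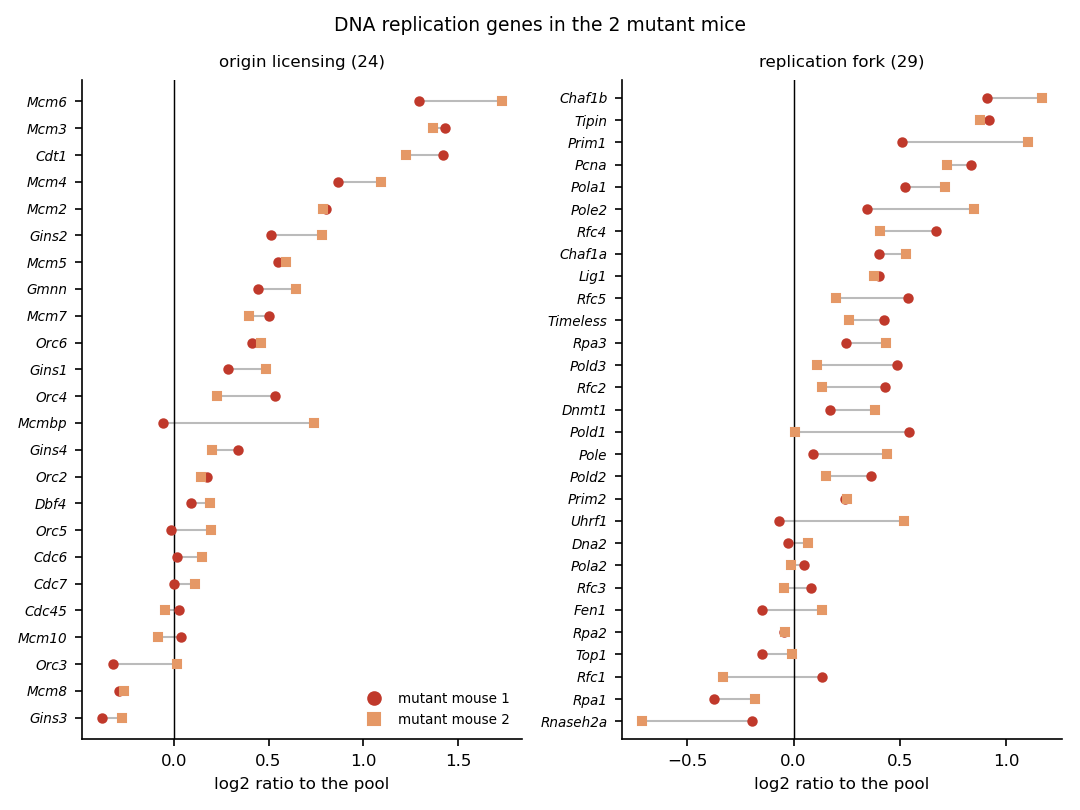
Log2 ratio to the wild-type pool (horizontal axis) for each measured gene of origin licensing (24 genes) and the replication fork (29 genes), with a circle for mutant mouse 1, a square for mutant mouse 2 and a line joining them. Mcm6, Mcm3 and Cdt1 lie above 1 in both mice, and 17 of 24 licensing and 19 of 29 fork genes lie above 0 in both.

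Pocket proteins and E2F factors, the partners of the altered protein, had medians of 0.24 and 0.35 over 12 of 13 listed genes. Both mice were above the pool for 8 and below for 3, and 3 had an unadjusted p under 0.05, all higher. The activator E2f2 was at 1.15 and 0.63 and the repressor E2f6 at 0.57 and 0.52. E2f3, another activator, was at 1.07 and 0.74 by its brightest probe, whereas its other probes read -0.11 and 0.05, and 0.05 and 0.12. The value of E2f3 therefore rests on 1 probe, and a dim second E2f6 probe also read 0.07 and -0.06. Rb1 itself, E2f4 at -0.03 and -0.11, and the E2F partner Tfdp2 at -0.20 and -0.10 were the 3 below the pool in both mice.

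Genes of G2/M and mitosis, which act after S phase, did not share the medians of the replication genes. Over 38 of 43 listed genes the medians were 0.00 and -0.10, with 11 above the pool in both mice and 17 below. The summed mouse channel of the class stood above the pool, at 1.29 and 1.07 times it, against 1.21 and 1.17 for the replication fork. Unadjusted p was under 0.05 for 2 higher and 2 lower. The proliferation marker Mki67 read -0.29 and -0.15, topoisomerase Top2a -0.31 and -0.11, and the mitotic phosphatase Cdc25b -0.53 and -0.39. Cks1b, a cyclin-dependent kinase partner, stood apart at 1.12 and 0.48, with Pttg1 (securin) at 0.82 and 0.21.

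Targets of p53 leaned below the pool, in tissue where both Trp53 alleles were conditional. All 35 listed genes were measured. Their medians were -0.18 and -0.13, with 17 below the pool in both mice and 9 above, and unadjusted p was under 0.05 for 4 lower and 2 higher. Rprm (reprimo), a G2 arrest gene, had the largest ratio shared by the mice, at -1.39 and -1.11, and a second probe read -1.40 and -0.91. The null mice read -1.29 and -1.41 for it. Ei24 was at -0.89 and -0.55 and the DNA damage sensor Xpc at -0.62 and -0.44. Ccng1 was at -1.59 in mouse 1 and -0.39 in mouse 2, so its size was set by mouse 1. The inhibitor Cdkn1a (p21) read -0.26 and -0.75. Gdf15 at 0.74 and 0.42 and Pidd1 at 0.75 and 0.24 went the other way. In the null mice the class medians were 0.02 and -0.09.

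Prostate secretory genes lay above the pool more often than all rows did, with members far below it. Their medians were 0.18 and 0.18 over 24 of 29 listed genes, with 14 above the pool in both mice and 6 below, and 3 at an unadjusted p under 0.05 each way. Pbsn, the androgen-regulated secretory protein probasin whose promoter drives the Cre, was at 1.17 and 0.91, with a mean of 1.04 (SE 0.19). The null mice read 0.34 and -0.21, and the difference between genotypes was 0.98 (SE 0.26, limma adjusted p = 0.993). Renin 1 (Ren1) was at 1.25 and 1.55 and Msmb, a major seminal plasma protein, at 1.93 and 0.68. The Ren1 probe may also read its near-identical copy Ren2. Klk1b26, a kallikrein, was at 0.43 and 0.43. On the other side, the secreted chaperone clusterin (Clu) was at -2.74 and -1.35 and the androgen-induced Fkbp5 at -0.96 and -0.32. The secretory protein gene Sbp read -0.59 and -0.90. The transglutaminase Tgm4 read 0.42 and 0.02, so secretory genes of both signs stood side by side.

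Seminal vesicle secretory genes were low in both mice and far lower in mouse 1. Svs2, Svs4, Svs5 and Svs6 read -4.03, -4.14, -4.69 and -1.85 in mouse 1 and -0.80, -2.50, -0.10 and -0.43 in mouse 2. Svs6 was not well above background in mouse 1, so its value there is only a bound. Summed over the 8 of 14 listed genes that were measured, the mouse channel stood at 0.042 times the pool in mouse 1 and 0.743 in mouse 2. Both mice were below the pool for 6 of the 8, and Ceacam10 was above it at 0.73 and 2.60. Seminal vesicle lies against the prostate, and the part of dissection in these values was not tested. The members of the secretory class shared with it, such as Pate4 at -5.54 and -0.79, carry the same gap between the mice.

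Basal and luminal epithelial classes lay slightly below the pool. Basal genes had medians of -0.24 and -0.12 over 24 of 27 listed, with 13 below the pool in both mice, 5 above and 3 lower at an unadjusted p under 0.05. The basal keratins Krt5 and Krt14 read -0.31 and -0.33, and -0.45 and -0.46. The laminin chain Lamb3, at -0.50 and -0.58, and the desmosomal Pkp1, at -1.08 and -0.41, belong to the structures that hold basal cells together. Luminal genes had medians of -0.09 and -0.16 over 25 of 26 listed, with 11 below in both mice and 3 above. The tight junction protein Cldn4 read -1.75 and -1.16 and the keratin Krt7 -0.44 and -0.83, while another claudin, Cldn8, lay above the pool at 0.57 and 0.52. Null mice 1 and 2 were at 0.93 and -1.30 for Cldn4 and at -0.51 and -0.24 for Cldn8. With median centring of the arrays in place of loess, the medians relative to all genes turned to 0.21 for the luminal and 0.10 for the basal class, so their direction depends on the scaling.

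Smooth muscle contractile genes gave the most uniform class below the pool among those described here. Of 25 listed genes 24 were measured, with medians of -0.44 and -0.47 in mutant mice 1 and 2. Both mice were below the pool for 21 and above it for 3, against 29.1% and 37.0% of all rows, and 7 were lower and 1 higher at an unadjusted p under 0.05. All 24 were well above background in both channels, and the summed mouse channel stood at 0.727 and 0.674 times the pool. Tropomyosin 2 (Tpm2), which lines the actin filament, was at -1.29 and -0.92, and a second probe read -0.82 and -1.33. The smooth muscle myosin heavy chain Myh11 was at -0.97 and -0.74, with a mean of -0.85 (SE 0.21). The filament-associated Csrp1 was at -0.74 and -0.76, and the actin crosslinker Flna at -0.58 and -0.74. The most abundant marker, alpha actin Acta2, was closer to the pool, at -0.10 and -0.16 by the brightest of 4 probes and at -0.98 and -0.77 by the dimmest. Srf at 0.30 and 0.18 and its coactivator Myocd at 0.87 and 0.20 are transcription factors that drive contractile genes. They and Pcp4, at 0.19 and 0.00, were the 3 members above the pool in both mice, and Myocd turned to -0.02 relative to all genes with median centring. The box that Srf binds, the CArG box, was found in 3 of 19 smooth muscle genes with windows (Cnn2, Ldb3 and Srf). Over all tested genes with windows the share was 1.71%. These 3 genes had medians of -0.13 and -0.22, closer to the pool than the 16 without the box at -0.46 and -0.48. The class medians were 0.22 and -0.10 in null mice 1 and 2. With median centring in place of loess the class median relative to all genes was only -0.05, and Flna turned to 0.01.

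Matrix and fibroblast genes, from the other main stromal lineage, lay above the pool. Matrix glycoproteins and proteoglycans had medians of 0.25 and 0.43 over 37 of 38 listed genes, with 27 above the pool in both mice and 3 below. Unadjusted p was under 0.05 for 1 higher and 1 lower. The null mice, which enter the estimate of spread, were far apart, with medians of -0.27 and 0.67. Fbln1 (fibulin 1), which binds elastic fibres and basement membranes, was at 1.96 and 1.18, and a second probe read 2.05 and 0.86. Fibrillin 1 (Fbn1) was at 1.36 and 0.99 and lumican (Lum) at 0.85 and 0.79, while fibromodulin (Fmod) went against the class at -0.24 and -0.95. Fibroblast and mesenchymal genes had medians of 0.28 and 0.31 over 28 of 29 listed, with 20 above in both mice and 1 below. Vimentin (Vim) was at 0.76 and 0.92, Cd34 at 1.14 and 0.85 and the transcription factor Zeb2 at 0.80 and 0.61.

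Collagens did not follow as a class. Their medians were -0.01 and 0.17 over 27 of 28 listed genes, with 12 above the pool in both mice and 8 below, and 2 higher and 4 lower at an unadjusted p under 0.05. Below the pool in both mice were Col16a1 at -0.72 and -0.78, Col7a1, the anchoring fibril collagen, at -0.62 and -0.61, Col23a1 at -0.91 and -0.55 and Col18a1 at -0.58 and -0.28. Above it were Col8a1 at 1.36 and 0.65 and Col1a2 at 0.66 and 0.80. The 2 chains of collagen I were split, with Col1a1 at -0.63 and 0.09.

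Proteases that cut the matrix and their inhibitors had medians of 0.33 and 0.20 over 18 of 24 listed genes, with 10 above the pool in both mice, 3 below, and 4 higher at an unadjusted p under 0.05. The inhibitor Timp2 was at 0.88 and 1.13 and Timp1 at 0.64 and 0.42, and the membrane protease Mmp14 was at 1.43 and 0.42. A dim second Mmp14 probe read 0.24 and 0.25. Summed over this class, the mouse channel stood at 0.887 times the pool in mouse 1 and 1.21 in mouse 2. Adipocyte genes had medians of 0.16 and 0.45 over 18 of 21 listed, with 10 above in both mice and 3 below, and 2 higher and 2 lower at an unadjusted p under 0.05. The fat markers Adipoq, Fabp4 and Plin1 read 0.78 and 1.47, 0.74 and 1.72, and 0.49 and 0.81. Each of these 3 was higher in mouse 2. Plin4, which coats lipid droplets, at -0.42 and -0.36, and the transcription factor Cebpa, at -0.87 and -0.35, lay below the pool. The summed class stood at 1.17 and 1.82 times the pool. Null mice 1 and 2 stood at 0.624 and 1.64 times the pool for this class, and the part of attached fat in the tissue taken was not tested.

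**Figure D3:**
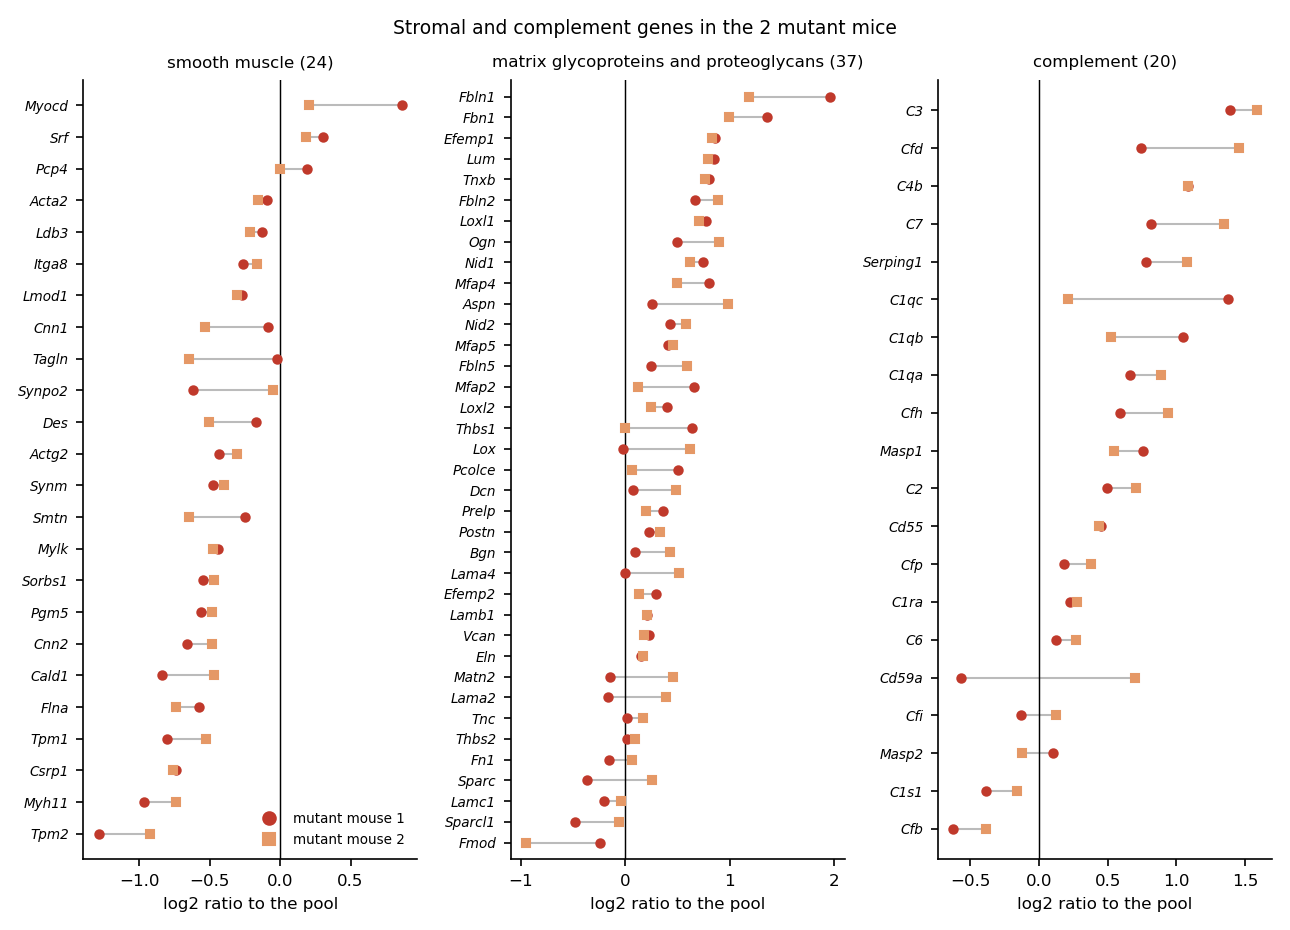
Log2 ratio to the wild-type pool (horizontal axes) for each measured smooth muscle (24), matrix glycoprotein and proteoglycan (37) and complement (20) gene, with a circle for mutant mouse 1, a square for mutant mouse 2 and a line joining them. Smooth muscle genes lie below 0 in both mice for 21 of 24, and matrix and complement genes above 0 in both for 27 of 37 and 15 of 20.

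The insulin-like growth factor axis lay above the pool with no measured member below it in both mice. Igf1 is a growth factor made by stromal cells in prostate, Igf1r is its receptor, and the binding proteins hold it outside the cell. Over 13 of 16 listed genes the medians were 0.34 and 0.33, with 8 above the pool in both mice and 4 higher at an unadjusted p under 0.05. Igf1 was at 0.85 and 1.38, and a second probe gave 0.83 and 1.48. Pappa, a protease that frees Igf1 from its binding proteins, was at 0.58 and 0.29, and the adaptor Irs1 at 0.60 and 0.44. Igf1r was at 1.66 and 0.45 by its brightest probe and at 0.18 and 0.15, 0.32 and 0.21, and 0.34 and 0.08 by the others, so the size of the first value rests on 1 probe. Igf2 read -0.06 and 0.54 and was not on the same side in both mice. In null mice 1 and 2 the medians were -0.17 and 0.29.

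Macrophage and myeloid genes lay above the pool in most cases. Of 40 listed genes 38 were measured, with medians of 0.32 and 0.22, 27 above the pool in both mice and 4 below. Only 2 had an unadjusted p under 0.05, both higher, and the null mice were again far apart, with medians of -0.14 and 0.74. The 4 defining markers were Lyz2 at 1.58 and 1.25, Adgre1 (F4/80) at 1.01 and 1.01, Csf1r at 0.69 and 0.70 and Cd68 at 0.49 and 0.38. A second Lyz2 probe read 1.02 and 0.68, on the same side with smaller ratios. Lyz1 and Lyz2 are near-identical copies whose probes may cross-read. The lysosomal protease Ctss was at 1.09 and 0.86. Lipoprotein lipase Lpl, which is also in the adipocyte list, was at 0.38 and 1.41. Members below the pool in both mice included Apoe at -0.39 and -0.31 and Ctsb at -0.21 and -0.19. The summed level of the class stood at 1.05 and 1.02 times the pool. Of the 32 members well above background in both channels, 24 lay above the pool in both mice.

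Complement, an innate defence cascade made locally by fibroblasts and macrophages, had medians of 0.54 and 0.53 over 20 of 27 listed genes, with 15 above the pool in both mice and 2 below. Unadjusted p was under 0.05 for 4, all higher. The central component C3 was at 1.39 and 1.59 and C4b at 1.09 and 1.08. The membrane attack component C7, not well above background in the pool channel, was at least 2.12-fold higher in the mutant mice and is 1 of those 4. Of the 17 members well above background in both channels of both mutant arrays, 13 lay above the pool in both mice and 2 below. C2 was at 0.49 and 0.71, the lectin pathway protease Masp1 at 0.76 and 0.54 and the regulator Cd55 at 0.45 and 0.44. Factor B (Cfb), at -0.62 and -0.38, and C1s1, at -0.39 and -0.16, were the 2 below the pool in both mice. C3 read -1.75 and 1.97 in null mice 1 and 2, an example of how far apart those mice were.

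MHC class II genes, which present antigen to T cells, had medians of 0.49 and 0.12 over 10 of 13 listed, with 7 above the pool in both mice and 0 below. H2-Eb1, a beta chain, was at 1.03 and 0.88, against -0.63 and -0.51 in the null mice, and the difference of 1.52 (SE 0.19) had a limma adjusted p of 0.993. Such chains are polymorphic between strains, and the strain mix of single mice was not measured. Mast cell genes had medians of 0.37 and 0.78 over 11 of 14 listed, with 9 above in both mice. Only 7 were well above background in both channels of both mutant arrays, and 5 of those lay above the pool in both mice. The chymases Cma1 and Mcpt4 were at 0.87 and 1.53, and 1.07 and 0.97. Hdc, which makes histamine, went against the class at -0.77 and -0.74, while the null mice read 0.16 and 0.08. The granule proteoglycan Srgn was at 0.78 and 0.84 and the transcription factor Gata2 at 0.40 and 0.78. Srgn and Gata2 were the 2 members higher at an unadjusted p under 0.05, and Hdc was the 1 lower. Gata2 is also in the list of androgen receptor and lineage factors, so it is not a marker of mast cells alone.

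Lymphocyte genes showed no shift of the same kind. Over 24 of 42 listed T, B and NK cell genes the medians were 0.04 and -0.07, with 7 above the pool in both mice and 7 below. The T cell marker Cd3e read 0.04 and -0.08, and 17 of the 24 were well above background in both channels of both mutant arrays. Of 16 neutrophil genes 5 were measured. Ltf (lactoferrin) was at -2.97 and -1.97 and a second probe read -2.66 and -2.04, with Lcn2 at -0.96 and -0.82 and Stfa3 at -0.71 and -0.74. Ltf and Lcn2 are also made by secretory epithelium. S100a9 was not well above background in the pool channel and was at least 1.22-fold higher in the mutant mice, but turned to -0.45 relative to all genes with median centring. Of the 14 erythroid genes 5 were measured, and the haemoglobin chain Hba-a1 was at 0.78 and 1.40. The part of blood left in the tissue was not tested.

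Ribosomal protein, oxidative phosphorylation and interferon-stimulated genes lay above the pool more often than all rows did, but unequally in the mice. Cytosolic ribosomal proteins had medians of 0.43 and 0.16 over 75 of 78 listed genes, with 47 above in both mice and 10 below. Unadjusted p was under 0.05 for 21 higher and 2 lower. Rps15a was at 1.28 and 0.89 and Rps18 at 1.07 and 0.78, whereas Rps9 read -0.30 and -1.01. A dim second Rps15a probe read -0.15 and 0.13. Many of these genes have near-identical processed copies in the genome, so the source of a probe's signal is uncertain. Oxidative phosphorylation genes had medians of 0.21 and 0.13 over 71 of 71 listed, with 33 above in both mice, 11 below, and 20 higher and 3 lower at an unadjusted p under 0.05. Cox6b1, of cytochrome oxidase, was at 1.91 and 0.76, and the ATP synthase subunits Atp5j and Atp5g3 at 1.33 and 0.68, and 1.15 and 0.66. Cox4i1, of the same oxidase as Cox6b1, lay below the pool at -1.31 and -0.52. So subunits of 1 complex did not lie on the same side of the pool.

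Interferon-stimulated genes had medians of 0.59 and 0.05 over 45 of 48 listed, with 29 above in both mice and 3 below, yet 1 alone, Stat2 at 1.15 and 0.45, had an unadjusted p under 0.05. Rtp4, at 2.27 and 0.66, and Oasl2, at 1.92 and 0.76, were the highest. Null mice 1 and 2 had medians of -0.22 and 0.86, so the null mice differed more than the mutant mice did. Mouse 1 also had the wider ratios over all rows, and the part of this in the class medians was not tested. Other classes, such as adipocyte and mast cell genes, had the larger median in mouse 2. Probes of very high GC content stood high in mouse 1. Its median was 0.04, 0.01 and 0.05 for probes of up to 40%, 40 to 50% and 50 to 60% GC, with no trend. Over the same ranges the median of mouse 2 fell from 0.07 to 0.0049 and -0.05. The median of mouse 1 was 0.26 for the 26 gene rows of 60 to 65% GC and 0.40 for the 80 above that. There mouse 2 had medians of 0.00 and 0.09. The part of probe composition in these classes was not tested.

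**Figure D4:**
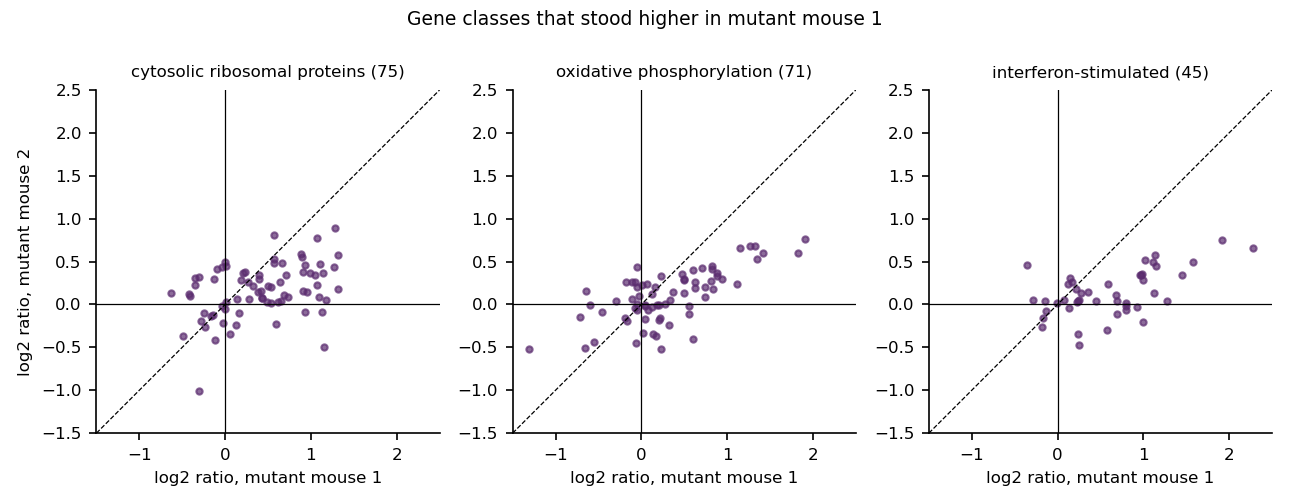
Log2 ratio to the wild-type pool of each measured cytosolic ribosomal protein (75), oxidative phosphorylation (71) and interferon-stimulated (45) gene in mutant mouse 1 (horizontal axes) and mutant mouse 2 (vertical axes), 1 point per gene, with a dashed line of equal ratios. Most points lie right of 0 and below the dashed line, with medians of 0.43 and 0.16, 0.21 and 0.13, and 0.59 and 0.05 in mice 1 and 2.

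Fatty acid synthesis and oxidation genes did not agree as a class, with medians of -0.30 and 0.07 over 28 of 28 listed. Within them 9 were lower at an unadjusted p under 0.05 and 0 higher, and 11 were below the pool in both mice against 8 above. The beta-oxidation enzymes Hadh at -1.30 and -0.49 and Hadha at -1.20 and -0.38 lay below the pool, with Acacb, which makes malonyl-CoA, at -0.97 and -0.48 and the desaturase Fads1 at -0.88 and -0.41. The median of the class relative to all genes turned to 0.04 without mouse 1 and to 0.07 with median centring. Among the Rb-associated chromatin modifiers, 28 of 29 measured, 8 lay above the pool in both mice and 12 below. The histone demethylase Kdm5b was at -0.98 and -0.47, but a second probe read 0.18 and -0.14, and the corepressor Sin3a was at -0.58 and -0.52. The heterochromatin proteins Cbx1 and Cbx3 lay above the pool, at 1.01 and 0.24, and 0.61 and 0.31.

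Single genes were then ranked by the smaller of their ratios in the mice. A ratio of at least 2-fold above the pool in both mice was found for 42 rows (0.250%), and of at least 2-fold below for 30 (0.178%). Unadjusted p was under 0.05 for 25 of each. Besides the replication genes, the higher rows held Lyve1, a hyaluronan receptor of lymphatic endothelium and some macrophages, at 1.73 and 1.95, with a second probe at 0.59 and 0.79. Nlrp10, of the NOD-like receptor family, was at 1.34 and 1.62, with a second probe at 0.87 and 1.45, and the Aurora kinase gene Aurkc was at 1.13 and 1.90. Pate14, a small secreted protein of the reproductive tract, was at 2.52 and 1.59. Rgs5, a pericyte gene, was at 1.09 and 1.16 by its brightest probe but at -0.72 and 0.31 by another, so its place rests on 1 probe. Renin 2 (Ren2) was at 1.81 and 1.52. Ren1 and Ren2 are near-identical copies whose probes map next to each other, and each may read both. The strain mix of single mice was not measured, and its part in these ratios was not tested.

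Below the pool, after Ms4a5 and Naip5, stood Svs4 at -4.14 and -2.50, Ltf as given above, and Il1r2, the decoy receptor of interleukin 1, at -1.96 and -2.03. Il1r2 and the aldose reductase-like Akr1b7, at -1.93 and -1.73, had the smallest adjusted p after the called genes, both 0.152 in limma. A second Il1r2 probe read -0.47 and -0.79. Null mice 1 and 2 read -1.85 and -1.88 for Akr1b7 against the same pool. Pate6, well above background in only 1 of the mutant mice, was at -2.07 and -1.76. Other rows were the antibacterial Pglyrp1 at -1.32 and -1.26, Gsdmc3, of the gasdermin family, at -1.26 and -1.34, and the fatty acid hydroxylase Cyp4a12a at -2.85 and -1.19. Zfp874a was not well above background in either mutant mouse and was at least 1.95-fold lower there.

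**Figure D5:**
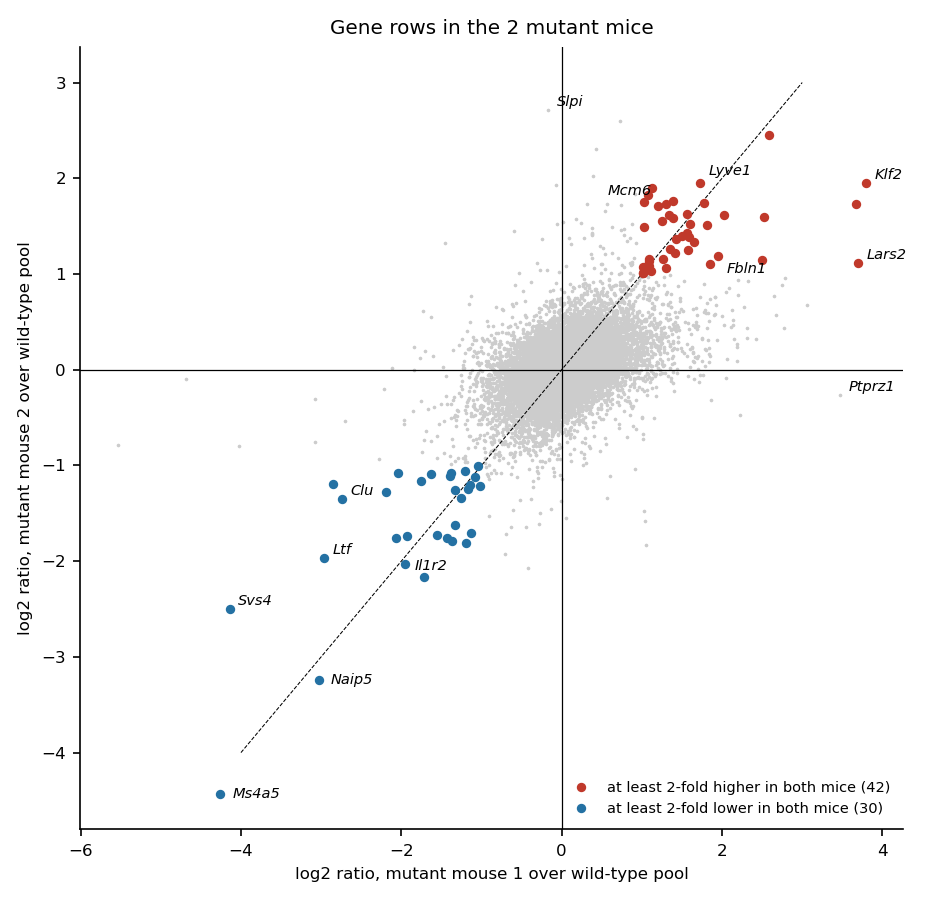
Log2 ratio to the wild-type pool of 16826 gene rows in mutant mouse 1 (horizontal axis) and mutant mouse 2 (vertical axis), with rows at least 2-fold higher in both mice in red (42), rows at least 2-fold lower in both in blue (30) and a dashed line of equal ratios. Ms4a5 and Naip5 lie near the dashed line at the lower left, while Klf2 and Lars2 lie far to its right.

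The highest ratios of mouse 1 are shown with their probes because the mice disagreed in size or sign there. Klf2, a transcription factor of endothelium and quiescent lymphocytes, was at 3.79 and 1.95, and its other probe read 1.04 and 0.06. An unnamed transcript, NAP050809-1, was at 3.68 and 1.73. The row named for Lars2, the mitochondrial leucyl-tRNA synthetase, was at 3.70 and 1.11. The row named for Ptprz1, a receptor phosphatase, was at 3.47 in mouse 1 and -0.27 in mouse 2. Other Ptprz1 probes read 0.74 and -0.21, and 0.05 and 0.23. The bright Klf2 probe holds 78.3% G and C and that of NAP050809-1 86.7%, against 45% for the Lars2 and Ptprz1 probes. Which transcript each of these probes reads was not tested, so the values are not established as expression of the named genes. The probes, as the array files give them with positions in mm7, are chr8:70842757-70842816 for Klf2, chr7:138522471-138522530 for NAP050809-1, chr9:123178230-123178289 for Lars2 and chr6:22942347-22942406 for Ptprz1.
Klf2 probe: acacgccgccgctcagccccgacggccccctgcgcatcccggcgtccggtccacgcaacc
NAP050809-1 probe: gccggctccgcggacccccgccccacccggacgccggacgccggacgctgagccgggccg
Lars2 probe: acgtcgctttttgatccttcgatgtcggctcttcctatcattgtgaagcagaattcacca
Ptprz1 probe: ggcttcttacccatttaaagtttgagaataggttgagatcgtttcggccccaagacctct
In the other direction Slpi, a secreted inhibitor of leukocyte proteases, was at -0.17 in mouse 1 and 2.71 in mouse 2. Itln1, a lectin of mucosal epithelium, was at 1.05 and -1.83, and the neuropeptide gene Vip at -1.45 and 1.32. The mean of 2 such values describes neither mouse.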

How the data were processed

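The deposited scanner files give each spot's brightness as intensity, per the file headers, read with Agilent Feature Extraction 9.5.1.1 (8.5 per the submitters' processing notes). Per the labels, RNA was amplified linearly from low input. From the intensities, normexp with an offset of 50 corrected each mean signal for its background median, and loess then normalised every array (limma 3.58.1, R 4.3.3). Spots of controls, and those flagged as outliers, were dropped. Probes had to be well above background in the mouse channel of both arrays of 1 genotype, or in the pool channel of all 4, which left 24918 of 41174 probes. The brightest probe stood for a gene, giving 16826 rows. Symbols were updated through a RefSeq table (GRCm38.p6), while the name in the file was used for 8455 probes. Positions of probes refer to mm7.

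A term per genotype was fitted with lmFit and eBayes over the 4 arrays, and the mutant mean was tested against 0 with Benjamini-Hochberg adjustment. The pool is 1 control sample, so variation among wild-type mice is not in the test, and dye bias is. Each label names a separate mouse. On simulated data for mutant against pool over 16826 genes, 50 genes were changed per fold size. On average over 10 draws the fit recovered 4.8 at 2-fold, 42.3 at 4-fold, 47.6 at 8-fold and 49.2 at 16-fold. Of the calls, 5.76% were false. Each draw gave a gene the same spread on all 4 arrays, drew genes independently and planted every fold size at once. In the data Svs4 and Klf2, with mutant means of -3.32 and 2.87, were not called. The simulated shares therefore do not tell how many real changes of a given size were found.

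The classes, and the rule for named genes, were chosen with earlier results of these data known. The rule took Rb1, Trp53, Ms4a5 and Naip5, then the 15 genes in each direction with an unadjusted p under 0.05 and the largest ratio shared by both mice. It also took up to 4 such members per class, or else the 2 brightest, the listed tissue markers and the 8 genes whose mice differed most in sign. Other normalisations, filters, probe summaries, array sets and variance models were tried as alternatives. Some genes are not reported here.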

Additional observations from a re-analysis of the deposited data

Results flagged for a closer look

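In 4 classes the median of each mutant mouse lay on the opposite side of 0 from the median of each null mouse, a difference between genotypes that was not tested for the class, and no member passed the limma threshold for mutant minus null. Ribosome biogenesis and nucleolar genes stood at -0.12 and -0.13 in the mutant mice, against 0.27 and 0.0080 in the null mice, as medians over 30 genes. The 8 subunits of the cytosolic chaperonin, which folds actin and tubulin, had medians of -0.28 and -0.12 against 0.25 and 0.034. Inducible heat shock genes had a median of 2.44 in null mouse 1, against 0.18 in null mouse 2 and 0.02 and -0.05 in the mutant mice. The part of this state of null mouse 1 in the chaperonin contrast was not tested. FGF and EGF ligands and receptors had medians of -0.031 and -0.055 against 0.11 and 0.065, and Rb-associated chromatin modifiers of -0.12 and -0.026 against 0.0099 and 0.024. Both sets of ratios share the pool. Over all rows the median of null mouse 2 was 0.033. Its medians for ribosome biogenesis and the chromatin modifiers lay below that level, and that for the chaperonin lay at it. The contrast in these classes therefore depends on taking 0 as the baseline. With median centring in place of loess, the mutant medians relative to all genes turned to 0.21 for ribosome biogenesis, 0.20 for the chaperonin and 0.16 for the chromatin modifiers.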

How the results depend on the processing

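The 2 calls of mutant against pool, Ms4a5 and Naip5, kept their direction under every alternative run, with limma adjusted p between 0.00384 and 1 for Ms4a5 and between 0.0104 and 1 for Naip5. The count of calls was 0 from Agilent's processed signals, with scale normalisation and with no filter on dim probes, and 5 with array weights. Median centring in place of loess gave 2658 calls, 2644 of them higher, because it moved the median over all genes to 0.68. Leaving out 1 mouse gave 0 calls (either mutant mouse) to 3 (either null mouse), and the mutant against null count ran from 0 to 157 (without null mouse 2). With the replicate block 0 genes passed (smallest adjusted p 0.223), and the numbers do not pair the samples, since deviations of same-numbered mice correlated at r = -0.00781. Rows 2-fold higher in both mice numbered 2401 with median centring and 204 from processed signals. Rows 2-fold lower in both numbered 12 and 118 under these, and 47 with a normexp offset of 16.

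Of 31 classes, 24 kept their direction relative to all genes with median centring, 30 with no filter and without mutant mouse 1, 29 without mutant mouse 2, and 31 under the 5 other alternatives run on them. With median centring the turned medians were 0.21 (luminal), 0.10 (basal), 0.07 (fatty acid), 0.21 (ribosome biogenesis), 0.20 (chaperonin), 0.16 (Rb-associated chromatin modifiers) and -0.00 (erythroid). Neutrophil genes turned to 0.02 with no filter, collagens to -0.04 and T, B and NK cell genes to 0.00 without mutant mouse 2, and fatty acid genes to 0.04 without mutant mouse 1. Single genes that turned relative to all genes with median centring were Acta2 (0.56), Apoe (0.24), C1s1 (0.25), Cdc6 (-0.49), Col1a1 (0.11), Ctsb (0.29), Flna (0.0057), Itln1 (0.12), Klk1b26 (-0.095), Krt5 (0.10), Myocd (-0.021), Pappa (-0.19), Rpa1 (0.13), S100a9 (-0.45) and Vip (0.034). Processed signals turned Cd3e (0.013), scale normalisation turned Vip (0.062), and the mean of all probes turned Fkbp5 (0.047), Tfdp2 (0.33) and Trp53 (-0.023). Leaving out a mutant mouse gave -0.078 to 0.040 for Cd3e, -0.049 to 0.028 for Cdc45, -0.63 to 0.087 for Col1a1, -0.063 to 0.54 for Igf2, -1.83 to 1.05 for Itln1, -0.27 to 3.47 for Ptprz1, -0.17 to 2.71 for Slpi and -1.45 to 1.32 for Vip. Apart from these constructions the cause of each change was not tested. Signal over background limits dim probes, whose ratios the offset draws towards 0.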
